A study of Homo sapiens with 8 samples.

Results

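The genes that license replication origins and build the replicative helicase were followed on 8 two-colour arrays, covering 4 human cancer cell lines. They were MCM2, MCM3, MCM4, MCM5, MCM6 and MCM7, which form the helicase ring, MCM10, CDC6, CDT1 and GMNN, and they were chosen by name, as every probe that the array annotation gives to one of them. All 10 of these genes were found, with 12 of the 58201 probes on the array, out of 42072 named genes. MCM5 and MCM7 had 2 probes each, and the brighter one stands for the gene unless the second is named.

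Each array set RNA of transfected cells (Cy5) against RNA of mock cells of the same line (Cy3), and the labels give the mock cells as not transfected. The transfected agents were miR-139-5p or miR-139-3p in the renal cancer lines A498 and 786-O (1 array per agent and line), the small interfering RNAs (siRNAs) si-GINS1_1 and si-GINS1_2 in the breast cancer line MDA-MB-231 (1 array each, called siRNA 1 and siRNA 2), and the strands miR-490-5p or miR-490-3p in the colorectal cancer line HCT116 (1 array each). All transfections used Lipofectamine RNAiMAX, and the labels give neither a dose nor a time. The replicates of si-GINS1 are therefore different siRNAs, those of miR-139 are different cell lines, and miR-490 has none. No siRNA or miRNA of irrelevant sequence was among the samples, so what any transfection does to these cells cannot be told apart from what each agent does.

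Eukaryotic cells prepare each replication origin once per cell cycle. In G1 phase the origin recognition complex, CDC6 and CDT1 load the MCM2 to MCM7 ring onto DNA as an inactive double hexamer, and geminin, the product of GMNN, binds CDT1 after S phase begins and blocks a second loading. The loaded ring becomes the active helicase when CDC45 and the GINS complex join it, and GINS1, the gene aimed at by both siRNAs, encodes a GINS subunit. MCM10 acts at that activation step. Transcripts of most of these genes are known to peak near the G1 to S transition under E2F transcription factors, and they are widely used as markers of dividing cells.

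Promoter sequence is shown because E2F-type sites are the textbook link between these genes. The RefSeq promoter table (GRCh38.p14, 250 bases before to 50 after each annotated start) had an entry for 8 of the 10 genes, and MCM4 and MCM5 had none. The 8-letter words TTTCCCGC, TTTCGCGC, TTTGCCGC and TTTGGCGC were searched on both strands. At least 1 word was present for 7 of these 8 genes, against 1090 of 27305 genes in the table, or 3.99%. Some genes had more than 1 entry. Counted by entry, 7 of the 11 entries of these genes held a word, against 1164 of 35116 entries, or 3.31%. MCM7 and GMNN also had entries without a word. The stretches that lie wholly before the start are given 5′ to 3′ along the gene's strand, with the words in capitals. MCM6 carried the same pair of overlapping words in both of its stretches, TTTGGCGC on the gene's strand and TTTCGCGC on the other.
MCM3, chr6:52284893-52284932, minus strand: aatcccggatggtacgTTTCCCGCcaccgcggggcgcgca
MCM6, chr2:135876568-135876611, minus strand: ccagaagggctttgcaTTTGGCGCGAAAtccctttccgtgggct
MCM6, chr2:135876506-135876549, minus strand: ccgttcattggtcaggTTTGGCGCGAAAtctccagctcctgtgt
MCM7, chr7:100101561-100101600, minus strand: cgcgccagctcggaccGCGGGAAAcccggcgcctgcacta
MCM7, chr7:100101398-100101422, minus strand: cacgtggggggcgacgTTTCGCGCc
CDT1, chr16:88803738-88803777, plus strand: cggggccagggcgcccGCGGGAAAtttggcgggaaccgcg
GMNN, chr6:24775317-24775356, plus strand: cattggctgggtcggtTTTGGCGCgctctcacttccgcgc

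The words of MCM2 and CDC6 lay just after the start, MCM3 had another across the start, and none of these 4 words was in the MCM10 window. A match of letters is a description and not a measured binding site. Among the helicase activation genes 5 of 9 genes with an entry held a word, and among the mitotic genes 1 of 9. Of the G1/S regulators 5 of 13 held one, and of the origin recognition genes 2 of 8.

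**Figure D1:**
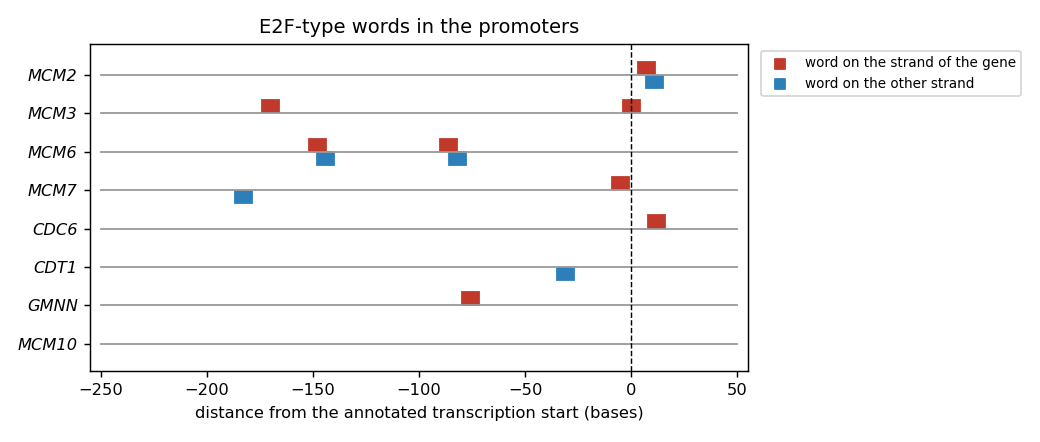
Position of the E2F-type words in the promoter windows of the 8 genes with a RefSeq entry, as distance in bases from the annotated start (dashed line). Words on the gene's strand stand above each line and words on the other strand below it. MCM6 holds 4 words in overlapping pairs before the start, and MCM10 holds none. Further entries of MCM7 and GMNN, which hold no word, are not drawn apart.

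The scanner software called between 24983 and 29688 probes per array well above background in 1 or both channels, and 0 spots were saturated. All 12 probes of the 10 genes were so called on every array, but CDC6 was dim, and its Cy3 signal was not well above background in 786-O. Every one of these probes was printed once. For scale, probes printed 10 times had a median SD over their spots between 0.046 and 0.054 log2 units, depending on the array. The lineage markers followed the cell line labels in part. The kidney factors PAX8 and PAX2 were brightest in A498 and 786-O, CDX2 was well above background only in HCT116, and vimentin (VIM) was bright in MDA-MB-231 and the renal lines but not in HCT116. EPCAM and CDH1 were brightest in HCT116, and the mesenchymal markers ZEB1 and MSN were lowest there. Other markers did not follow the labels. The mesenchymal marker CAV1 was nearly as bright in HCT116 as in A498 (10.5 and 10.7, as mean log2 Cy3 intensity). The luminal breast marker GATA3 (6.91) and the blood cell marker CD14 (8.27) were brightest in MDA-MB-231. The luminal marker ESR1 and the blood cell marker PTPRC were well above background in every mock channel. The gut marker CDX1 was brightest in A498 (7.11, against 6.81 in HCT116, as mean log2 Cy3 intensity), LGALS4 was not well above background in HCT116, the renal marker CA9 was not in A498, and NDUFA4L2 and the gut marker VIL1 were not in any mock channel.

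GINS1, the target, was low with both siRNAs. On its probe (hg19 chromosome 20, 25429111 to 25429170) the log2 ratio of transfected over mock was -1.31 with siRNA 1 and -1.92 with siRNA 2, and lay between -0.11 and 0.55 on the other 6 arrays. The target was thus below mock on both arrays.

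The comparison of the siRNAs side by side asks whether the licensing factors moved alike when GINS1 was targeted by a pair of different siRNAs. With siRNA 2 all 10 genes were below mock, with a median log2 ratio of -0.67, and with siRNA 1 8 of the 10 were above mock, with a median of 0.13, which was 0.30 by the scanner log ratio and 0.61 with median centring. The median of all genes was 0.02 with siRNA 1 and 0.00 with siRNA 2. For every one of the 10 the difference, siRNA 2 minus siRNA 1, was below 0, from -1.91 to -0.28 log2 units, and 9 of these differences passed an adjusted p of 0.05 in limma, where 13.4% of all 27798 probes were lower and 11% were higher by the same rule. All 10 were also lower with siRNA 2 under each of the other 4 ways of correcting and normalising the arrays.

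The call itself was less firm than the direction. Each siRNA had 1 array, so limma took the spread from the miR-139 arrays, and the test assumes that the MDA-MB-231 arrays vary as those do. With the scanner software's own log ratio no probe of the array was called (0 of 27798, with 5568 at an unadjusted p under 0.05), and the adjusted p values of the 10 genes lay between 0.113 and 0.416. With median centring of the arrays 5 of the 10 were called.

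**Figure D2:**
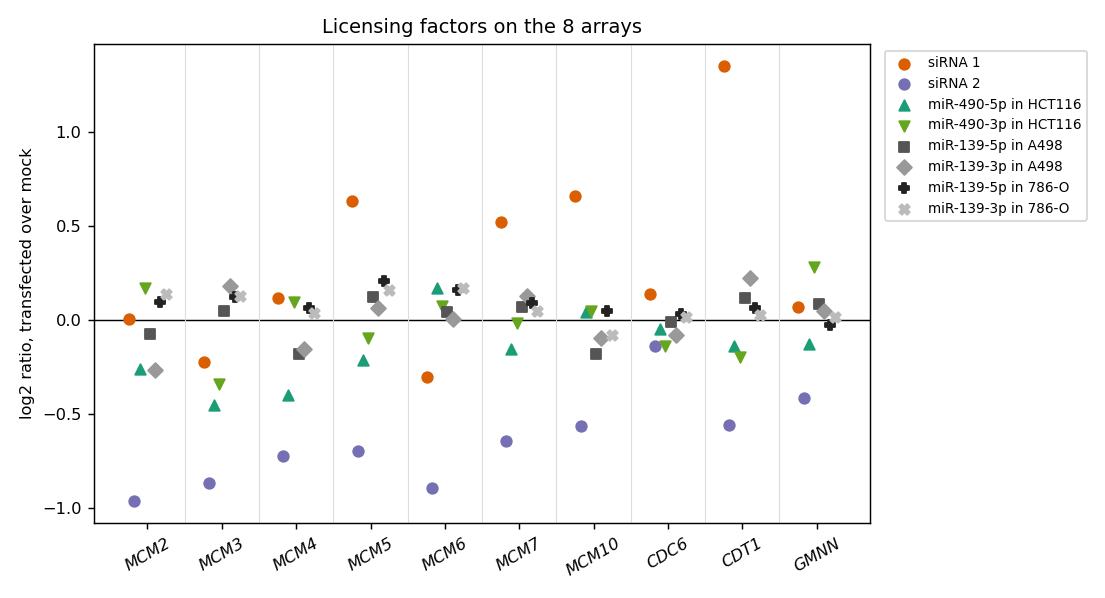
Log2 ratio of transfected over mock (vertical axis) for the 10 licensing factors (horizontal axis) on the 8 arrays, 1 point per array. With siRNA 2 all 10 points lie below 0, from -0.96 to -0.14, and with siRNA 1 they spread from -0.30 to 1.36. Points of the 6 miRNA arrays lie between -0.45 and 0.28.

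CDT1, which brings the ring to the origin, differed most. Its probe (hg19 chromosome 16, 88875606 to 88875665) gave a log2 ratio of 1.36 with siRNA 1 and -0.56 with siRNA 2. After miR-139-5p it lay at 0.12 in A498 and 0.06 in 786-O, after miR-139-3p at 0.22 and 0.03 in the same lines, and in HCT116 at -0.14 (miR-490-5p) and -0.20 (miR-490-3p). Of the 8 arrays that of siRNA 1 was therefore the high one and that of siRNA 2 the low one, with the other 6 between them. The difference of siRNA 2 from siRNA 1 was -1.91 (SE 0.12, limma adjusted p 0.0014), 3.76-fold lower. CDT1 with siRNA 1 was the only value of the set on any array that reached 1 log2 unit in either direction, and 0.968% of genes lay at or above 1 on that array. None of the 10 reached -1 with siRNA 2, where 1.31% of genes did. These counts depended on the processing. With siRNA 2 MCM2 was past -1 by the scanner log ratio, with the offset of 10 and with no background correction, and MCM10 by the scanner log ratio (-1.19), and with siRNA 1 MCM5 and MCM7 were past 1 under median centring.

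After quantile normalisation the log2 Cy3 intensity of CDT1 in mock MDA-MB-231 was 7.28 beside siRNA 1 and 7.06 beside siRNA 2, a gap of 0.22, which was the widest between these channels among all 12 probes. The labels do not say whether both arrays received the same mock extract.

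CDC6, the ATPase that acts with CDT1 in loading, was the member that did not pass. Its probe (hg19 chromosome 17, 38459354 to 38459413) lay at 0.14 with siRNA 1 and -0.14 with siRNA 2, and between -0.14 and 0.04 on the other arrays. The difference of -0.28 (SE 0.09) did not pass the test (limma adjusted p 0.0824). The spot was so dim, at a mean Cy3 brightness of 32 and 32.5 on the siRNA arrays, that the background correction sets much of its ratio. The scanner log ratio gave 0.52 and -0.64, so that CDC6, the smallest of the 10 differences here, had a larger one than GMNN by that ratio, with the offset of 10 and with no background correction.

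GMNN, which encodes geminin, the inhibitor of CDT1, stood at 0.07 with siRNA 1 and -0.41 with siRNA 2 (hg19 chromosome 6, 24786108 to 24786167). The difference was -0.48 (SE 0.09, limma adjusted p 0.0186), against -1.91 for CDT1. It did not pass with median centring, the offset of 10 or no background correction (limma adjusted p 0.135, 0.129 and 0.079).

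The subunits of the helicase ring spread on both sides of mock on the siRNA 1 array. MCM5 and MCM7 were above mock with siRNA 1, MCM2 and MCM4 were near it, and MCM3 and MCM6 were below it. With siRNA 2 all 6 subunits lay between -0.96 and -0.64, a span of the ratios far narrower than that with siRNA 1.

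MCM5 (hg19 chromosome 22, 35819307 to 35820178, an interval wider than the 60-base probe, which therefore spans a splice junction) lay at 0.64 with siRNA 1 and -0.70 with siRNA 2. Its second probe, at 35813789 to 35813848, gave 0.63 and -0.61, so that both probes of the gene gave like values. The difference was -1.34 for the first probe (SE 0.09, limma adjusted p 0.0018) and -1.25 for the second (SE 0.08, limma adjusted p 0.0017).

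The MCM7 probe at hg19 chromosome 7, 99690520 to 99690579, gave 0.52 with siRNA 1 and -0.64 with siRNA 2, and the dimmer MCM7 probe at 99697277 to 99697336 gave 0.62 and -0.25. The differences were -1.17 (SE 0.08, limma adjusted p 0.0018) and -0.87 (SE 0.09, limma adjusted p 0.0033). The probes differ in where they sit in the gene and in the transcript the annotation gives them, and their directions were alike.

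MCM2 (hg19 chromosome 3, 127340805 to 127340864) stood at 0.00 with siRNA 1 and -0.96 with siRNA 2. The latter was the lowest of the 10 values on that array. The difference was -0.97 (SE 0.21, limma adjusted p 0.0266), with the largest SE of the set. On the other arrays MCM2 lay at -0.08 (miR-139-5p) and -0.27 (miR-139-3p) in A498, at 0.10 and 0.14 in 786-O, and at -0.26 (miR-490-5p) and 0.17 (miR-490-3p) in HCT116. It was thus above mock in 786-O and below it in A498, but with median centring its A498 value after miR-139-5p turned to 0.21.

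MCM4 (hg19 chromosome 8, 48888334 to 48888393) stood at 0.12 and -0.72, a difference of -0.84 (SE 0.15, limma adjusted p 0.0173).

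MCM3 (hg19 chromosome 6, 52128893 to 52128952) and MCM6 (hg19 chromosome 2, 136598217 to 136598276) were below mock on both siRNA arrays. MCM3 lay at -0.22 with siRNA 1 and -0.87 with siRNA 2, and MCM6 at -0.30 and -0.89. With median centring, which leaves the median of all genes at 0.18 on the siRNA 1 array, the siRNA 1 values turned to 0.45 for MCM3 and 0.24 for MCM6. The differences between the siRNAs kept their sign and were -0.65 for MCM3 (SE 0.08, limma adjusted p 0.0066) and -0.59 for MCM6 (SE 0.12, limma adjusted p 0.0205).

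MCM10, which is not a ring subunit despite its name, was close to MCM5 in its values. Its probe (hg19 chromosome 10, 13251992 to 13252051) lay at 0.66 with siRNA 1 and -0.56 with siRNA 2, a difference of -1.22 (SE 0.13, limma adjusted p 0.0036). MCM5, MCM7, MCM10 and CDT1 were the 4 of the 10 with a difference at or below -1, as 2.87% of 20884 genes had.

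On the siRNA 2 array 6 of the 10, all of them ring subunits, lay below the 5th percentile of all genes, -0.57. MCM10 and CDT1, each at -0.56, lay just above that cutoff. With the offset of 10 they stood at -0.96 and -0.78, both lower than MCM7 at -0.67. The divide between ring subunits and the rest thus depended on the offset. On the siRNA 1 array MCM5, MCM10 and CDT1 lay above the 95th percentile, 0.61. In all, 8 genes of the set stood above 0 with siRNA 1 and below 0 with siRNA 2, where 21.7% of 20884 genes did so, and 49.1% of those genes were below 0 with siRNA 2. MCM2 is one of the 8 at 0.00 with siRNA 1. With the scanner log ratio, an offset of 10 or no background correction it fell on the other side of 0, which left 7 genes above 0.

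**Figure D3:**
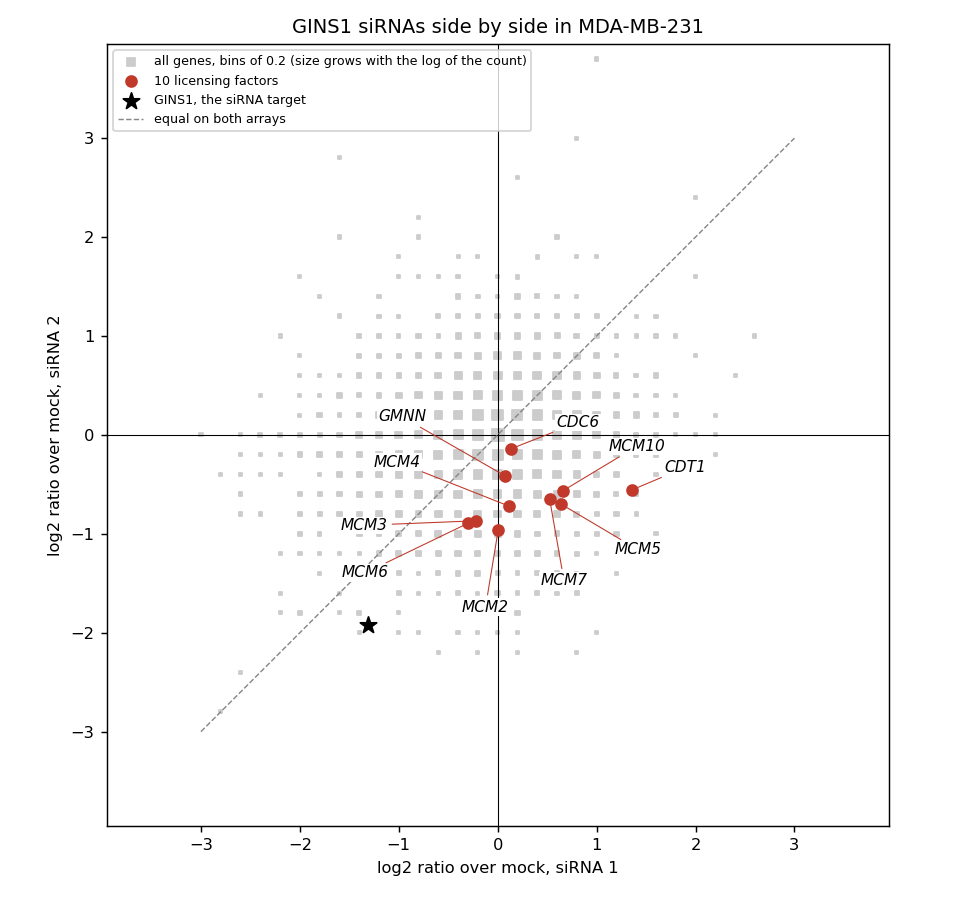
Log2 ratio over mock with siRNA 1 (horizontal axis) against siRNA 2 (vertical axis) for all 20884 genes measured on both arrays (grey, binned by 0.2), the 10 licensing factors (red) and GINS1 (star). All 10 red points lie under the dashed line of equal ratios and 8 lie in the lower right quadrant, whereas GINS1 is low on both axes at -1.31 and -1.92.

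The mean of both siRNA arrays lay between opposite values for most of these genes. In the test of the si-GINS1 mean against mock 0 of the 10 genes passed, while 3.63% of probes were called lower and 3.33% higher, and the lowest adjusted p of the set was 0.0853, for MCM6 (limma). The SD between both arrays was 1.35 log2 units for CDT1 and 0.94 for MCM5 (n = 2). With the cell line of the miR-139 arrays as a block 0 of all 27798 probes were called, with 5473 at an unadjusted p under 0.05. At an unadjusted p under 0.05 in the first fit the count was 2, MCM3 and MCM6. Leaving out an array leaves 1 in the group, so the calls of such fits are not counted here. Kept alone, siRNA 1 had a median of 0.13 over the 10 genes and siRNA 2 a median of -0.67, so the sign was decided by which array was kept.

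Other genes of origin firing were set beside them by the same test, which with the scanner log ratio called no gene of any list. In its main form that test called 13.4% of all probes lower and 11% higher. Of 12 helicase activation genes, which turn the loaded ring into a moving helicase, 11 were lower with siRNA 2 than with siRNA 1 in limma, with a median difference of -1.04. CDC45, which joins the ring with GINS, stood at 0.75 with siRNA 1 and -1.63 with siRNA 2. GINS2, a partner subunit of GINS1, stood at 1.21 and -1.07. CDC7, the kinase that phosphorylates the MCM ring, stood at 1.22 and -0.20. For GINS1 itself the difference was -0.61 (SE 0.13, limma adjusted p 0.0252), with both values below 0.

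The origin recognition list was mixed. Of its 8 genes 3 were lower and 1 higher with siRNA 2, with a median difference of -0.07, close to the median of all genes at 0.00. Over all probes 13.4% were lower and 11% higher, so the 1 higher gene is near that share. ORC6 (0.99 and -0.35) and ORC1 (0.43 and -0.15), subunits of the complex that marks origins, and ORC3 (0.51 and -0.05) were lower. ORC2 was higher (-0.15 and 0.22), and MCMBP, a binding partner of MCM proteins, stood at 0.14 and 0.22 (limma adjusted p 0.547). Of the paralogs with no part in licensing, MCM8, a helicase of recombination, was lower with siRNA 2 (0.96 and -0.33), and MCM9 did not pass (-0.03 and -0.17, limma adjusted p 0.31).

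Of 8 genes for ligases that turn over CDT1 protein, 1 was lower and 3 were higher. By the same test 13.4% of all probes were lower and 11% higher, so the 1 lower gene is near that share. DTL, which encodes the receptor that brings CDT1 to the CUL4 ligase, followed CDT1, at 1.07 with siRNA 1 and -0.94 with siRNA 2, a difference of -2.0 (SE 0.12, limma adjusted p 0.0014). CUL4B (-1.98 and -0.52), CUL4A (-0.15 and 0.57) and SKP1 (-1.34 and -0.49) were higher with siRNA 2.

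The same order of the siRNAs was seen outside replication, beside 13.4% of all probes called lower and 11% higher. Of 18 G1/S regulators 11 were lower with siRNA 2 and 1 was higher (CCND1, which encodes cyclin D1, at -1.44 and -1.01), with a median difference of -0.50. E2F1, the E2F factor best known for driving these promoters, stood at 1.06 and -0.87, and E2F2 at 1.33 and -1.11. Of 10 mitotic genes 9 were lower with siRNA 2, with a median difference of -1.16 and a median of 0.30 with siRNA 1 and -0.73 with siRNA 2. MKI67, the proliferation marker, stood at 0.22 and -1.14. In bulk RNA a smaller share of cycling cells and less of each transcript per cell cannot be told apart, and the part of cell cycle position in the values of the licensing factors was not tested.

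**Figure D4:**
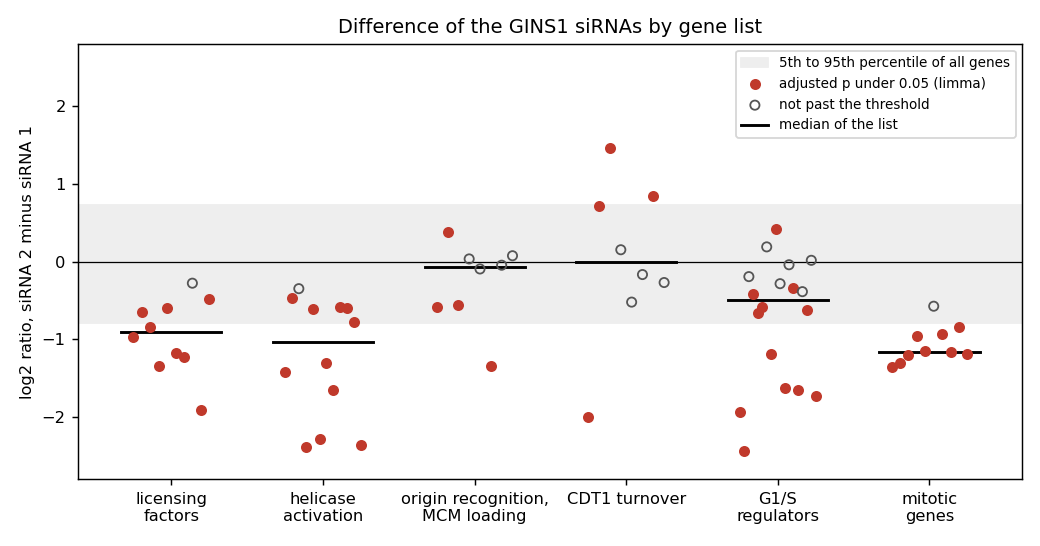
Difference of log2 ratios, siRNA 2 minus siRNA 1 (vertical axis), for each gene of 6 lists, with filled points for an adjusted p under 0.05 in limma, open points for the rest, and a bar at the list median. The grey band covers the 5th to 95th percentile of all genes, -0.79 to 0.72. The licensing factors (median -0.90), helicase activation genes (-1.04) and mitotic genes (-1.16) have 6, 6 and 9 points below the band, and of the origin recognition genes (-0.07) only ORC6 lies below it.

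The miRNA arrays asked whether the same genes respond to either strand of miR-139 or miR-490. The mature strands, from RefSeq (GRCh38.p14, miR-139 on chromosome 11 and miR-490 on chromosome 7), are shown 5′ to 3′ with the seed (bases 2 to 8) in capitals. No pair of them shares a seed.
miR-139-5p: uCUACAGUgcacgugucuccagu
miR-139-3p: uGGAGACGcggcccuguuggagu
miR-490-5p: cCAUGGAUcuccaggugggu
miR-490-3p: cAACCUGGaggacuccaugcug

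With miR-139 the licensing factors stayed close to mock in both renal lines. None of the 10 passed the limma test for miR-139-5p, where 0.0129% of probes did, or for miR-139-3p, where 0% did (0 of 22810, with 1012 at an unadjusted p under 0.05). That fit took its spread from the si-GINS1 pair as well, whose arrays differed for these genes. For CDT1 after miR-139-5p the SE was 0.43, although the SD between its arrays was 0.04. The test could therefore hardly call these genes, and no conclusion is drawn from it. After miR-139-5p their values lay between -0.18 and 0.12 in A498 and between -0.03 and 0.21 in 786-O, with medians of 0.05 and 0.08. After miR-139-3p they lay between -0.27 and 0.22 in A498 and between -0.08 and 0.17 in 786-O, with medians of 0.03 and 0.04. None reached 1 log2 unit in either direction, and nor did most genes, since only 0.0684% (A498) and 0.0368% (786-O) of all genes did so after miR-139-5p, and 0.204% and 0.0261% after miR-139-3p.

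On both 786-O arrays 9 of the 10 were above 0. MCM5, at 0.21 (miR-139-5p) and 0.16 (miR-139-3p), and MCM6, at 0.16 and 0.17, were the highest there, and neither passed the test over both lines. Whether the arrays of a line share a mock extract is not given, so these values cannot be taken as independent.

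The HCT116 arrays had no replicate and are described without a test. With miR-490-5p 8 of the 10 were below 0, with a median of -0.15, and MCM3 (-0.45), MCM4 (-0.40) and MCM2 (-0.26) were lowest. MCM6 (0.17) and MCM10 (0.04) were above 0. With median centring the median of the 10 was 0.00, against 0.06 for all genes, so that the side of 0 on which this set lay depended on the scaling.

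With miR-490-3p 5 were above 0 and 5 below, with a median of 0.02. GMNN was highest (0.28) and MCM3 lowest (-0.34), and MCM3 was below 0 with both strands. With median centring 9 of the 10 were above 0 on this array, MCM3 among them (0.03), and the median was 0.27. MCM2 and MCM4 were below 0 with miR-490-5p and above it with miR-490-3p, at 0.17 and 0.10. None of the 10 reached 1 log2 unit with either strand, as 1.41% of genes did after miR-490-5p and 1.08% after miR-490-3p. The mock Cy3 levels of both HCT116 arrays differed by 0.12 log2 units at most over the 12 probes.

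The mock channels show how much of each transcript the lines carried before transfection. Levels are compared between lines for a gene, never between genes, since each probe has its own brightness, and each line is known from 2 channels. A498 was lowest beyond the gap of its channels for 8 of the 10 genes, with CDC6 (lowest in 786-O, where the spot was not well above background) and CDT1 (lowest in MDA-MB-231) as the exceptions. HCT116 was highest for MCM5, MCM7, CDC6 and CDT1, MDA-MB-231 for MCM3, MCM6 and GMNN, and 786-O for MCM2 and MCM4. With scaling to the 75th percentile in place of quantile normalisation 786-O was highest for MCM4 only, MCM2 was highest in HCT116, and for CDC6 786-O ranked first in place of last, with overlapping channels. Over 14829 genes measured in every mock channel, MDA-MB-231 was highest beyond the channels for 19.2%, HCT116 for 25.2%, A498 for 17.7% and 786-O for 17.5%. The share of all genes lowest in A498 is not given here, so the 8 of 10 cannot be set against it.

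CDT1 spanned the widest range between lines. Its log2 Cy3 intensity was 9.60 and 9.68 in HCT116, 7.99 and 8.07 in 786-O, 7.84 and 7.99 in A498, and 7.28 and 7.06 in MDA-MB-231. HCT116 stood 5.53-fold over MDA-MB-231 and was far above the rest, and the renal lines overlapped. MDA-MB-231, the only line given the siRNAs, was the one with the least CDT1. Whether this level goes with the siRNA values was not tested, since no other line received them.

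MCM3 showed another order. It was 11.2 and 11.4 in MDA-MB-231, while HCT116 had 11.2 and 11.2, 786-O had 11 and 11, and A498 had 9.03 and 8.82, which made A498 5.19-fold lower than MDA-MB-231, whereas the top lines stood only 0.10 log2 units apart. MCM4 was 9.01 and 9.14 in 786-O against 7.0 and 7.10 in A498, a 4.08-fold difference between the renal lines. MCM2 was also highest in 786-O (8.91 and 9.0) and lowest in A498 (8.0 and 8.07).

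GMNN, the inhibitor, was 2.92-fold higher in MDA-MB-231 (9.55 and 9.65) than in A498 (8.15 and 7.96), and 786-O (9.40 and 9.40) stood above HCT116 (9.08 and 9.04). MDA-MB-231 therefore had the highest GMNN and the lowest CDT1 of the 4 lines, and HCT116 the highest CDT1 with the third level of GMNN. Under scaling to the 75th percentile HCT116, not 786-O, ranked next to MDA-MB-231 for GMNN. MCM5 and MCM7 ran in the same order as each other, with HCT116 over MDA-MB-231, then 786-O, then A498, and 2.70-fold and 2.49-fold between the ends. The second MCM5 probe kept that order. By the second MCM7 probe HCT116 and MDA-MB-231 overlapped. MCM6 ranged over 1.58-fold only, and for MCM10 the 3 lines above A498 overlapped in their channels.

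**Figure D5:**
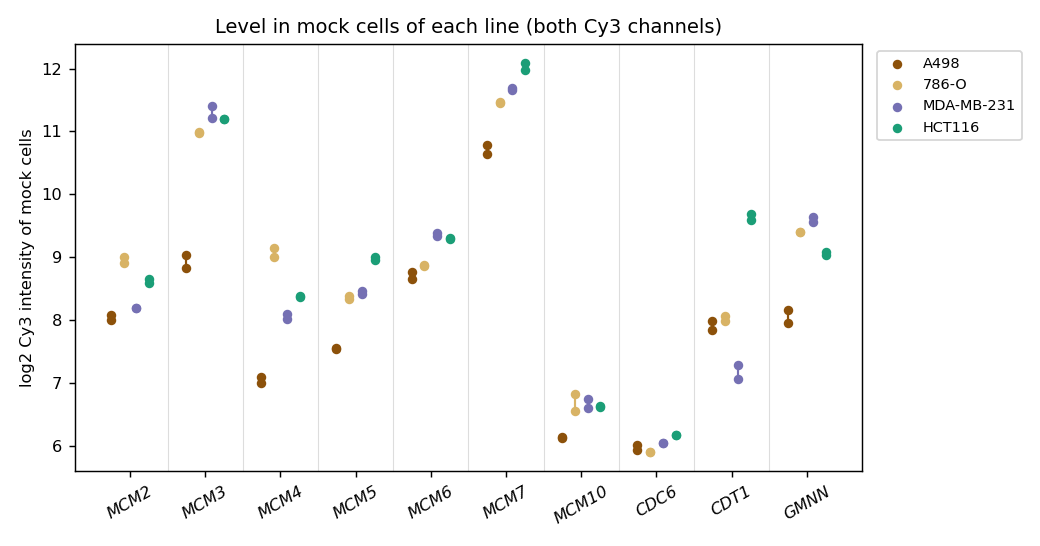
Log2 Cy3 intensity of mock cells (vertical axis) for the 10 licensing factors in the 4 cell lines, after quantile normalisation over the 8 mock channels. Both channels of a line are drawn as points joined by a bar. A498 lies lowest for 8 genes, and CDT1 shows the widest span, from 7.06 in MDA-MB-231 to 9.68 in HCT116.

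The genes whose log2 ratios ran most like the median of the 10 over the 8 arrays were sought among 15960 genes outside the set. They were APOO (Pearson r = 0.988), E2F8 (0.988), P3H4 (0.984), SERINC3 (0.984) and FBXO21 (0.983). The siRNA 2 array lies far from the others and weighs heavily in r, and over the 6 miRNA arrays the same 5 genes had r between 0.818 for APOO and 0.951 for E2F8. The 5 were picked by r over all 8 arrays, those 6 among them, so the latter r is no separate check. E2F8, an E2F family member that represses transcription, stood at 0.30 with siRNA 1 and -0.88 with siRNA 2. P3H4 stood at 0.25 and -1.64, and SERINC3 at 0.01 and -1.58.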

How the data were processed

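The members and the gene lists were chosen with earlier results of these data known. Per the file headers, spots were read by Agilent Feature Extraction. They deposited, for each spot and channel, the mean intensity and the local background intensity on a linear scale, and a log10 ratio of Cy5 over Cy3 made by the scanner software. That series table of the authors was identical to these log10 ratios (largest gap 0), so both are 1 alternative, called the scanner log ratio and converted to log2. The authors pooled nothing, and no test of theirs on the arrays was given in the sources used here.

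Intensities were corrected by normexp (offset 50), normalised by loess within each array without control spots and outlier flags (limma 3.58.1, R 4.3.3), and averaged per probe. The offset pulls ratios of dim probes toward 0. No dyes were swapped, so a probe's dye bias stays in each ratio but leaves the difference of the siRNAs. Probes entered a test when well above background in at least 1 channel on every array compared. Group means were tested against 0 by lmFit and eBayes in 1 fit of 8 arrays with 5 group coefficients (3 residual degrees of freedom), which leaves out the spread of the mock, and siRNA 2 minus siRNA 1 with 6 coefficients (2 residual degrees of freedom). Benjamini-Hochberg adjustment ran over all probes tested. The labels do not say that arrays came from separate cultures, so p-values measure the spread between these samples. For siRNA 2 minus siRNA 1 that spread came from the miR-139 arrays only. For the group means it came from the miR-139 and the si-GINS1 arrays. The miR-139 arrays pair by cell line, per the labels, and across 22179 probes the 2 strands deviated from their means with r = 0.0753. The line as a block was added after seeing the data. The Cy3 channels were corrected alike and quantile normalised. The fits were tested on simulated data. Precision is limited by the number of arrays.

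Alternatives were the scanner log ratio, median centring, an offset of 10, no background correction, no filter, a variance trend with robust prior, any or all probes of a gene, other samples in the fit, subtraction of the miRNA arrays, and leaving out each array. For mock levels they were 75th percentile scaling and the scanner software's processed signal. Text names all 10 members, the target, and the 5 genes most like the members' median. Of the genes of other lists called between the siRNAs it names only some. MCMBP, MCM9 and the cell line markers were named after their values were seen. Probes are placed on hg19 as the array annotation gives them, and exon boundaries were not used here. Genes were named by the annotation's RefSeq accession through a RefSeq table (31100 of 31770 probes with an accession matched). Later steps used Python 3.11.15 with matplotlib 3.10.9, scipy 1.17.1, pandas 2.3.3 and numpy 2.4.6.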

Additional observations from a re-analysis of the deposited data

Results flagged for a closer look

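In MCM2, MCM4 and CDC6 both miR-139 arrays of A498 lay below 0 and both of 786-O above it. The share of all genes with such a split of signs is not given here. The difference between the lines was not tested. For MCM2 the A498 mean minus the 786-O mean was -0.290 log2 units, for MCM4 -0.217 and for CDC6 -0.0726. With median centring MCM2 after miR-139-5p in A498 turned to 0.21, so that it no longer divided the lines. The mock level of MCM2 and MCM4 was highest in 786-O beyond the gap of the channels, but for MCM2 not with 75th percentile scaling. CDC6 was not well above background in the mock channel of 786-O.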

How the results depend on the processing

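For siRNA 2 minus siRNA 1, the count of 9 called was 5 with median centring and 0 with the scanner log ratio, and between 7 and 10 under the other alternatives. With median centring MCM2, MCM3, MCM6 and GMNN lost their call. The cause was not tested. Over all probes the count of 6787 was 1904 with median centring and 0 with the scanner log ratio. For the si-GINS1 mean 0 were called under every alternative that kept both of its arrays. Fits with 1 of them left out are not counted. Its count over all probes, 1934, was 75 with the scanner log ratio, 661 less the miRNA groups and 0 with only its own arrays. Under median centring it was 2975 (285 lower and 2690 higher, against 1009 and 925). For miR-139-5p the 3 probes became 7 with the scanner log ratio, 6 with the offset of 10, and 0 with median centring or with no filter. For miR-139-3p the count of 0 became 13 with the scanner log ratio, 6 with the offset of 10, 4 with no background correction and 3 with a robust prior. None of the licensing factors was called for miR-139 in any alternative that kept both arrays of a strand. Fits with 1 of those left out are not counted either. All these fits took part of their spread from the si-GINS1 pair, so they could hardly call these genes.

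With median centring the median of the 10 moved in A498 to 0.37 (miR-139-5p) and 0.12 (miR-139-3p), in 786-O to 0.25 (miR-139-3p), to 0.61 with siRNA 1, -0.47 with siRNA 2 and 0.27 after miR-490-3p, and it turned to 0.0049 after miR-490-5p. MCM3 and MCM6 with siRNA 1 turned to 0.45 and 0.24. With siRNA 1 the median was 0.30 by the scanner log ratio. With siRNA 2 it was -0.86 by the scanner log ratio, -0.83 with the offset of 10 and -0.81 with no background correction. Past 1 log2 unit there were 3 genes with siRNA 1 under median centring, and with siRNA 2 there were 2 by the scanner log ratio, 1 with the offset of 10 and 1 with no background correction. With 75th percentile scaling 1 gene had its highest mock level in 786-O. The cell line of the miR-139 arrays as a replicate block, chosen after seeing the data, changed no call of the 10 genes (9 for siRNA 2 minus siRNA 1, 0 for the rest). Over all probes this block gave 6941 for siRNA 2 minus siRNA 1 and 0 for each group mean. Low brightness limits CDC6 most.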
